A study of Bos taurus with 16 samples.

Results

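Endometrium biopsied 100 days after calving was compared with endometrium of the same cows at day 10, across all genes on an Agilent one-colour array. The comparison takes the 4 arrays labelled d100 and the 4 labelled d10, that is 8 of the 16 arrays of the series, and pairs them by cow number. All 4 animals are Bos taurus cows that the labels call fertile. Their day 10 biopsies were taken 9, 9, 9 and 10 days after calving, and their day 100 biopsies 100, 99, 100 and 100 days after it. Day 30 and day 50 biopsies of the same cows, 4 arrays each, entered the estimate of the spread. No treatment is given for any group. Several pieces of each uterine horn were taken with biopsy forceps, so a sample mixes the cell types of the uterine lining and of what lies under it, and fewer cells of a type cannot be told apart from less RNA per cell. Each cow's 4 arrays lie on 1 slide in the order of the days, so array position and time cannot be told apart, and neither can slide and cow.

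After calving the uterus of a cow involutes. Surplus matrix is cut by secreted proteases, macrophages and neutrophils clear tissue and bacteria, and the luminal epithelium is rebuilt, while cyclic ovarian activity resumes. The endometrium then acts on the next embryo through secreted proteins, lipid mediators such as prostaglandins and lysophosphatidic acid, and steroid-responsive genes.

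A level below is the log2 processed signal of a probe relative to the 75th percentile of its array, and a difference is day 100 minus day 10 on that log2 scale with its standard error (SE). A change was called at a limma adjusted p under 0.05, in a fit to all 16 arrays with terms for time and cow. Of 13422 genes tested, 238 were higher at day 100, which is 1.77%, and 413 were lower, which is 3.08%. Of these, 235 and 409 moved the same way in 4 of 4 cows. Over probes, 1527 of 33182 were called, or 4.6%, 482 higher and 1045 lower. With normexp background correction the split turned to 1494 higher and 605 lower, and with quantile normalization it was 629 and 824. The median difference over all tested probes was -0.07 as scaled here and 0.23 after normexp. The number of calls rests on the spread borrowed from the other times and on single animals. It was 44 in a fit to the 8 arrays alone, 75 without cow 1, 83 without cow 3, 193 without cow 4 and 266 without the day 10 array of cow 1. Of the 120 genes chosen for naming, 9 kept their call with each cow left out in turn (MMP1, MMP3, MMP9, MMP12, MMP13, MPEG1, NOS2, PAMR1 and TRPA1), and 12 passed in the 8 arrays alone. The lists of genes used below hold between 5 and 55 tested members. Each list count below stands against the shares of all genes, 1.77% higher and 3.08% lower. A list with few calls may lie near these shares, and its calls are then read as single genes. The genes called lower had median levels of -0.98, -2.64, -2.85 and -3.33 at days 10, 30, 50 and 100, and those called higher had -1.48, -0.71, 0.33 and 0.50.

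The biopsies hold the tissue that the labels name, with unequal shares of its layers. EPCAM and KRT8 of epithelium, VIM and DCN of stroma, MYH11 and DES of smooth muscle and PTPRC of leukocytes were well above background on all 8 arrays. The mean level of 31 epithelial markers, relative to all 16 arrays, was 0.74, -2.87, -0.93 and 0.68 in cows 1 to 4 at day 10 and 3.00, -3.81, 0.85 and 0.79 at day 100. Smooth muscle markers (28 genes) stood at -1.47, 1.34, 1.23 and -1.68 and then -2.78, 1.89, -1.40 and 0.11. Cow 1 at day 100 was thus the array richest in epithelial RNA of the 8, and cow 2 at day 100 the poorest. EPCAM, an epithelial adhesion molecule, read 6.14, -3.21, 5.93 and 5.15 at day 100, low in cow 2 alone. None of the 31 epithelial and none of the 28 smooth muscle markers was called. Without the day 100 array of cow 2 the called probes rose to 3104, without that of cow 1 they were 1372, and without both 1814. With the difference between both marker levels as a covariate they were 2673. Processed signals were also lowest in cows 2 and 3 at day 100, with array medians of 54.8 and 51.1 against 100.5 to 154.3 on the other 6 of the 8 arrays. Replicate arrays correlated across probes at r of 0.90 to 0.98 at day 10 and 0.83 to 0.96 at day 100, where probes are not independent replicates.

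**Figure D1:**
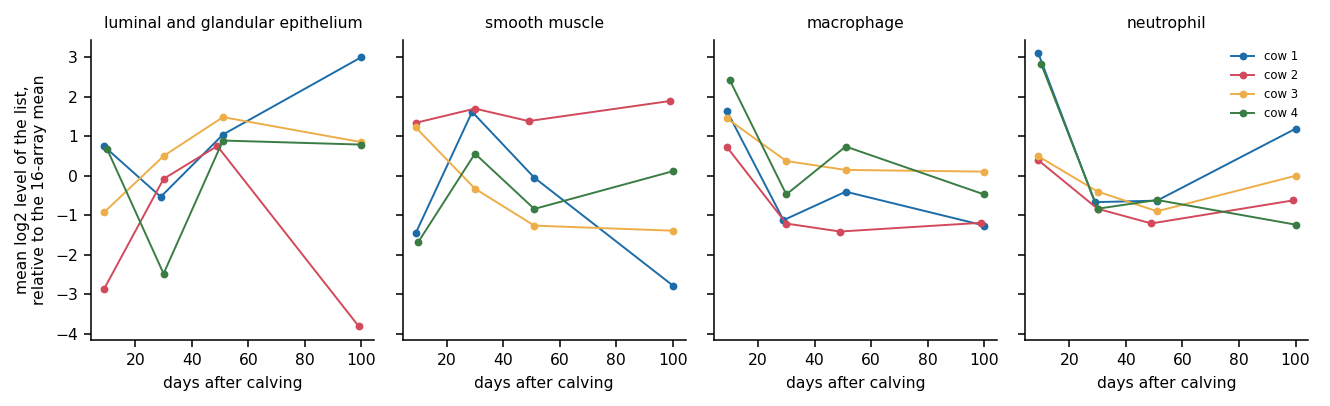
Mean log2 level of 4 marker lists relative to the mean of all 16 arrays (vertical axis) against days after calving, 1 line per cow. Epithelial and smooth muscle levels diverge between cows at day 100, from 3.00 in cow 1 to -3.81 in cow 2 for epithelium, while macrophage levels are lower at day 100 than at day 10 in each cow.

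Probes of 6 genes that the results turn on, 3 matrix proteases, a defensin, a WNT antagonist and an enzyme that ends prostaglandin signals, are shown as the array carries them, 60 bases read 5′ to 3′ on the transcript strand, from the deposited files. Coordinates are on build HGSC Btau_3.1. In MMP1 the capitals mark the codons of the catalytic zinc-binding motif, in MMP3 the stop codon, and in TAP and DKK1 the cysteine codons.
MMP1: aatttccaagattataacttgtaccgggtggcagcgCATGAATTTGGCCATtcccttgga
MMP3: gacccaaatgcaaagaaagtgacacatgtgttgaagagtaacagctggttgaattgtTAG
MMP13: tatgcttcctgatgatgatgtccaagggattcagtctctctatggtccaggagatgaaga
TAP: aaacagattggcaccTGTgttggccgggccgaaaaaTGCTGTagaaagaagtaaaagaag
DKK1: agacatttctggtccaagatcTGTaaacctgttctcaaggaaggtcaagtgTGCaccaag
HPGD: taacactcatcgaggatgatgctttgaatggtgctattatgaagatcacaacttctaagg
The MMP1 probe lies at chr15:4762221-4763283 and the MMP13 probe at chr15:4620591-4622061, both on the plus strand. These spans of 1063 and 1471 bases are longer than the probe, so each probe crosses a splice junction as the array design maps it. The MMP3 probe, which ends at the stop codon, lies at chr15:4734307-4734366 on the plus strand. On the minus strand lie the TAP probe at chr27:6127986-6128045, the DKK1 probe at chr26:7003779-7003838 and the HPGD probe at chr8:6728470-6728529. The printed probes of MMP1, MMP3, MMP13 and TAP were well above background on 4 of 4 day 10 arrays and 0 day 100 arrays. For such a probe only a bound can be given, taken against the dimmest probes that were well above background on the day 100 arrays, or the probe's own signal where higher. Each bound holds for the processed signal as scaled here, and another background correction can give a smaller difference. By these probes MMP1 was at least 97.9-fold lower at day 100, MMP3 674-fold, MMP13 30.7-fold and TAP 46.6-fold. DKK1 and HPGD rose by 4.76 ± 1.10 and 3.87 ± 0.73 (limma adjusted p = 0.0361 and 0.0187). The values below come from the brightest probe of each gene, which is another probe where the difference is not the same.

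Several matrix metalloproteinases fell by wide margins. MMP1, a collagenase that opens fibrillar collagen, read 1.61, 3.02, 4.18 and 4.24 in cows 1 to 4 at day 10 and -7.21, -4.07, -3.79 and -4.89 at day 100, where 3 of 4 arrays were well above background. It fell by 8.26 ± 0.63 (adjusted p = 0.000217), and the groups lie far apart. MMP3, or stromelysin, whose substrates include proteoglycans and other MMP proenzymes, read 3.32, 3.08, 4.19 and 4.17 at day 10 and was not well above background on any day 100 array. It was at least 1207-fold lower (adjusted p = 1.56e-06). For the collagenase MMP13, 1.31, -1.65, 0.17 and 1.31 at day 10 gave way to no array well above background, a fall of at least 131-fold (adjusted p = 0.000335). The macrophage elastase MMP12 was at least 14.1-fold lower by the same measure (adjusted p = 0.000227), a call lost with normexp (adjusted p = 0.0538). Over the alternatives tried, the smallest differences were -7.06 for MMP3, -4.11 for MMP13 and -1.15 for MMP12, which are smaller falls than these bounds. MMP3 and MMP13 kept their calls in each alternative that tested them. MMP9, a gelatinase of leukocytes, stayed measurable, with 2.54, 0.33, 0.37 and 0.06 at day 10 and -3.16, -3.98, -4.82 and -4.84 at day 100, a fall of 5.02 ± 0.49 (adjusted p = 0.00082). Its highest value was that of cow 1 at day 10, and all day 100 values lay below all day 10 values. Of 16 tested MMPs 6 fell and 0 rose, with a median difference of -2.21, and 11 of 16 were lower in 4 of 4 cows, as were 1986 of all 13422 genes. The count was 5 in the 8 arrays alone, 5 to 8 with a cow left out and 10 without the day 100 array of cow 2. Mean levels at days 30 and 50 were -5.03 and -5.27 for MMP1 and -3.68 and -4.14 for MMP9.

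Some genes of the plasminogen system, which activates several MMP proenzymes, also fell. PLAU, the urokinase, read 3.78, 3.05, 3.77 and 4.24 at day 10 and 0.40, 1.63, 1.27 and -0.56 at day 100, without overlap, a fall of 3.03 ± 0.53 (adjusted p = 0.0146). Its receptor PLAUR fell by 3.09 ± 0.68 (adjusted p = 0.0318), from 0.74, -2.05, -0.81 and 1.67 to -3.16, -3.83, -2.61 and -3.18, again with no overlap. SERPINB2, the inhibitor of urokinase made by macrophages among other cells, was well above background on 3 day 10 arrays and 0 day 100 arrays and was at least 4.46-fold lower (adjusted p = 0.0144). With normexp its difference was -0.26 and did not pass (adjusted p = 0.683). The tissue-type activator PLAT had a difference of -0.02 ± 0.35 and the metalloproteinase inhibitor TIMP1 one of -1.49 ± 0.52, and neither passed (adjusted p = 0.977 and 0.108). Of 25 tested members of the inhibitor and plasminogen list, 3 fell, 0 rose and 22 did not pass, where 3.08% of all genes fell. Of 22 tested ADAM and ADAMTS proteases, ADAMTS5, an aggrecanase, fell by 1.85 ± 0.39, and ADAM19 and ADAM9, membrane sheddases, fell by 2.54 ± 0.61 and 1.69 ± 0.39 (adjusted p = 0.0269, 0.0405 and 0.0358). An upstream probe of ADAM9 did not pass, at -0.70, and the call of the named ADAM9 probe was lost with normexp, at -0.44. In the ADAM list 19 of 22 members did not pass, and its median turned from -0.37 to 0.26 with normexp.

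In the list of matrix glycoproteins 4 of 41 tested members fell, PAMR1, TNC, SPP1 and MFAP4, 1 rose and 36 did not pass, with a median difference of -0.89. PAMR1, a secreted protein with a peptidase-like domain, read 4.74, 5.02, 4.97 and 4.33 at day 10 and -2.31, 0.24, -1.53 and -0.32 at day 100. Its day 10 values span less than 1 log2 unit, all day 100 values lie below them, and the fall was 5.74 ± 0.60 (adjusted p = 0.0016). TNC, tenascin-C of remodelling stroma, went from 4.87, 5.78, 5.71 and 4.35 to -3.26, 3.16, 0.56 and 0.72, a fall of 4.88 ± 1.08 (adjusted p = 0.0318). Cow 1 had the lowest and cow 2 the highest TNC level at day 100, the animals with the most and the least epithelial RNA. TGFBI, a collagen-binding adhesion protein induced by TGF-beta, went from 4.05, 3.78, 2.98 and 3.37 to -1.11, 0.64, -0.30 and -1.30 and fell by 4.06 ± 0.49 (adjusted p = 0.00375). Microfibril-associated MFAP4 fell by 3.46 ± 0.80 and the integrin chain ITGA8, a receptor of tenascin and osteopontin, by 3.75 ± 0.77 (adjusted p = 0.0359 and 0.0248). Day 100 levels of ITGA8 were -1.84, 3.41, -0.45 and 1.17, highest in cow 2. The 1 member that rose was PRG4, the boundary lubricant lubricin, at a difference of 6.45 ± 1.58 (adjusted p = 0.0432). PRG4 was well above background on 2 of 4 day 10 arrays.

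Among 28 tested collagens COL15A1 and COL4A2, of basement membranes, fell by 2.70 ± 0.56 and 2.63 ± 0.67 (adjusted p = 0.026 and 0.049). COL4A2 was not lower in cow 2, with 2.08 at day 10 and 2.18 at day 100. COL2A1 was called higher by a pair of neighbouring probes, with a difference of 4.16 ± 0.88, but an upstream probe read -1.20 and did not pass, so its direction is uncertain. COL1A1 and COL3A1, the chains of the main fibrillar collagens, had differences of -0.29 ± 0.23 and -0.56 ± 0.47 (adjusted p = 0.441 and 0.474). The median over the collagen list was -0.33 as scaled here and 0.21 after normexp, so no direction is given for the list. HS3ST3A1 and HS3ST3B1, paralogous enzymes that sulfate heparan chains, fell by 4.11 ± 0.77 and 4.21 ± 0.79 (adjusted p = 0.0186 and 0.0189). Their sequences are much alike, and whether each probe reads its own gene was not tested. In the list of integrins and laminins ITGA8 and ITGA4, which forms the leukocyte integrin VLA-4, and the laminin chain LAMC1 fell among 28 tested. LAMC1 fell by 1.55 ± 0.34 (adjusted p = 0.0313), but by 0.34 with normexp, which did not pass. The ITGA4 probe was well above background on 3 of 4 day 100 arrays, and its difference of -1.61 turned to 0.06 after normexp.

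Macrophage genes fell together. Of 24 tested markers, 22 fell and 0 rose, where 3.08% of all genes fell, and the median difference was -2.26. Each of those 22 was lower in 4 of 4 cows, as were 409 of all 413 genes called lower. The mean level of the list was 1.64, 0.72, 1.45 and 2.42 in cows 1 to 4 at day 10 and -1.26, -1.19, 0.10 and -0.48 at day 100, without overlap. CSF1R, the receptor for the growth factor that keeps macrophages alive, read 2.67, 2.47, 2.75 and 3.60 at day 10 and 0.31, 0.48, 0.95 and 0.78 at day 100. Both times are tight and apart, and the fall was 2.24 ± 0.28, or 4.74-fold (adjusted p = 0.00388). CD14, the co-receptor that presents bacterial lipopolysaccharide to TLR4, read 3.83, 1.82, 2.76 and 4.02 and then -1.17, -0.45, 1.28 and 0.00, a fall of 3.19 ± 0.45 (adjusted p = 0.007). The values at both times lie apart, and its smallest change was in cow 3 and its largest in cow 1. MPEG1, which encodes the pore-forming perforin-2 of phagocytes, fell by 2.59 ± 0.29 (adjusted p = 0.00212), from 1.01, 0.72, 1.49 and 2.34 to -1.02, -2.31, -0.59 and -0.89. The scavenger receptor MSR1 fell by 2.05 ± 0.29 and VSIG4, a complement receptor of resident macrophages, by 2.27 ± 0.42 (adjusted p = 0.00733 and 0.0185). FOLR2, a folate receptor of resident macrophages, fell by 2.59 ± 0.45 and the co-stimulator CD86 by 1.92 ± 0.38 (adjusted p = 0.0139 and 0.0224). The 2 members that did not pass were the Fc receptors FCGR2B and FCGR3A, at -1.02 ± 0.34 and -1.39 ± 0.47 (adjusted p = 0.0928 and 0.0999). Mean levels of CSF1R at days 30 and 50, 0.44 and 0.86, lay near its day 100 values. The count of macrophage markers that fell was 13 without the cow term, 9 without the day 10 array of cow 1 and 14 without the day 100 arrays of cows 1 and 2. It was 1, 7 and 3 without cows 1, 3 and 4, and 0 in the 8 arrays alone.

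The neutrophil list had 0 calls among 10 tested members, and 9 of 10 members were negative. Its median difference was -1.72, and -0.82 after normexp, against 0.004 over all tested genes as scaled here. The mean level of that list at day 10 was 3.10, 0.39, 0.49 and 2.83, so cows 1 and 4 stood above cows 2 and 3, and at day 100 it was 1.19, -0.63, 0.00 and -1.24, lower in each cow. Whether neutrophil and macrophage lists differ in their change was not tested. S100A8, a calprotectin subunit abundant in neutrophils, had a difference of -3.78 ± 1.37 that did not pass (adjusted p = 0.117). The leukocyte marker PTPRC (CD45) had a difference of -0.51 ± 0.39 (adjusted p = 0.426).

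**Figure D2:**
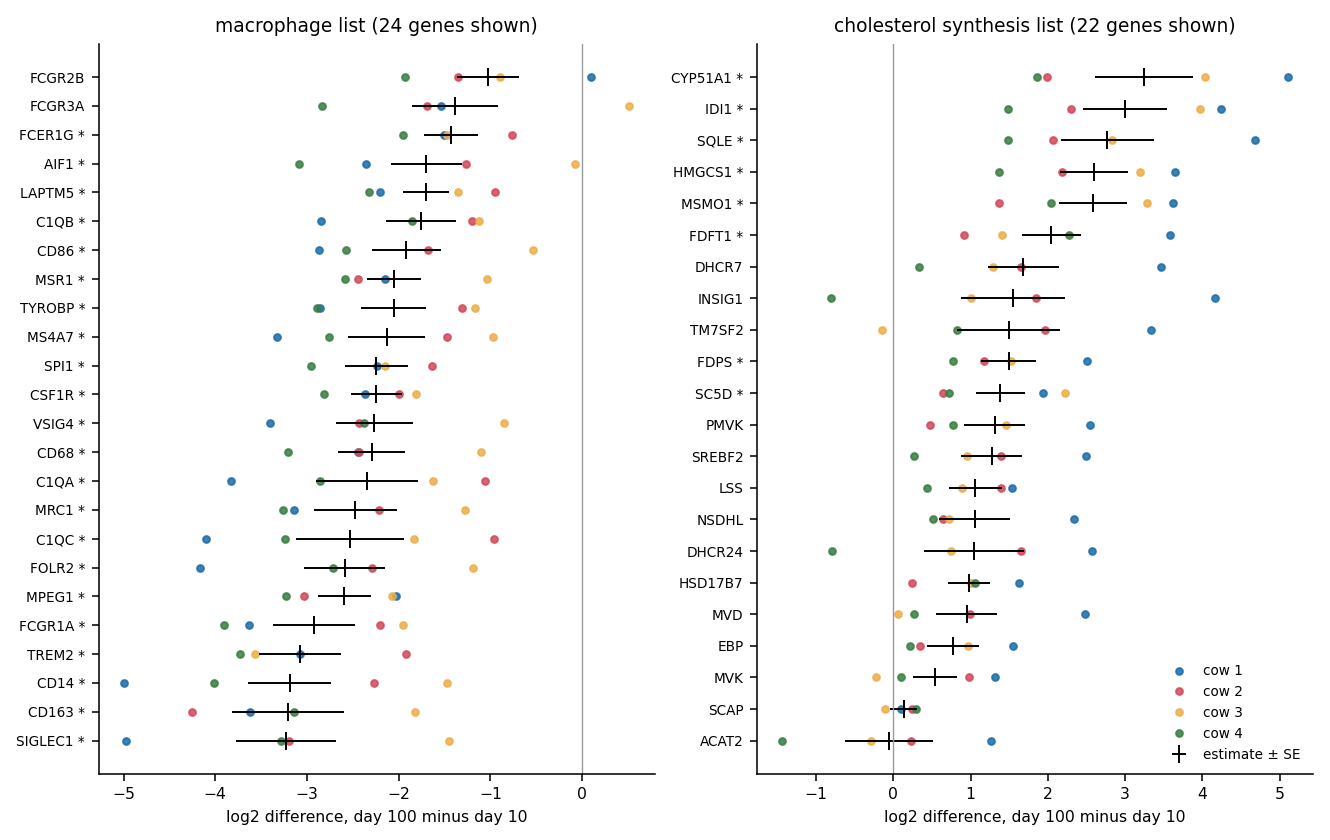
Difference between day 100 and day 10 (log2, horizontal axis) for 24 tested genes of the macrophage list and 22 of the cholesterol synthesis list. Coloured points are single cows, bars the fitted estimate ± SE, and an asterisk marks an adjusted p under 0.05. In the macrophage panel 22 of 24 genes carry an asterisk on the lower side, and in the cholesterol panel 8 of the 22 shown on the higher side.

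Complement and lysosomal genes fell in part, and both lists overlap with the macrophage list. Of 32 tested complement genes 6 fell and 0 rose, where 3.08% of all genes fell, and 4 of the 6 are macrophage markers as well. C3AR1, the receptor of the anaphylatoxin C3a, fell by 2.33 ± 0.35 (adjusted p = 0.00852). C5AR1, the C5a receptor, fell by 3.09 ± 0.68, and C1QB, a chain of the recognition molecule C1q that macrophages secrete, by 1.76 ± 0.38 (adjusted p = 0.0307 and 0.0295). C5AR1 was well above background on 2 of 4 day 100 arrays. Of 47 tested lysosomal genes 9 fell and 0 rose, with a median of -0.64, and 2 of the 9 are macrophage markers. CTSC, which encodes cathepsin C, fell by 2.32 ± 0.33, CD68 by 2.30 ± 0.37, LAPTM5 by 1.70 ± 0.25 and the proton pump subunit ATP6V0D2 by 2.95 ± 0.47 (adjusted p = 0.00733, 0.011, 0.00808 and 0.011). In the list of fatty acid and lipid genes, 47 of 51 did not pass, 0 rose and 4 fell. These were LIPA, the lysosomal acid lipase, by 1.58 ± 0.30, APOE by 2.29 ± 0.44, the fatty acid receptor CD36 by 2.63 ± 0.57 and the acyl-CoA synthetase ACSL6 by 2.56 ± 0.51 (adjusted p = 0.0202, 0.0205, 0.03 and 0.0225). The median of that list was 0.06. With normexp the calls of C5AR1, ATP6V0D2 and ACSL6 were lost, at differences of -0.36, -1.29 and -1.40, and a second CD36 probe gave -1.59 and did not pass. Without cow 1, 3 or 4 the lysosomal count was 0, 2 and 0, that of complement 0, 2 and 0 and that of lipid genes 0, 2 and 0.

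The called cytokine and chemokine genes fell. They were 6 of 42 tested chemokines and receptors and 6 of 37 tested interleukins and receptors, where 3.08% of all genes fell. CXCL8, the main neutrophil attractant, read 2.49, -2.77, -1.89 and 2.35 at day 10 and -2.71, -4.93, -4.72 and -5.63 at day 100. At day 10 cows 1 and 4 lay over 4 log2 units above cows 2 and 3, and the day 100 value of cow 1 is as high as the day 10 value of cow 2, so the groups just overlap. The fall was 4.54 ± 1.09 (adjusted p = 0.0405). CXCL9, an interferon-induced attractant of T cells, was high in the same cows, 2.00, -1.19, -1.35 and 2.29 at day 10 against -4.16, -4.08, -2.16 and -3.41 at day 100, and fell by 3.89 ± 0.79 (adjusted p = 0.024). CCL3, a macrophage inflammatory protein, was more even, with -2.59, -3.03, -1.69 and -3.08 and then -5.06, -5.05, -5.42 and -5.85, a fall of 2.75 ± 0.37 (adjusted p = 0.00609). Its relative CCL4 fell by 2.19 ± 0.43 and their receptor CCR1 by 2.21 ± 0.40 (adjusted p = 0.0223 and 0.0162). IL1RN, the interleukin-1 receptor antagonist, read 2.91, 0.46, 2.05 and 3.12 and then 0.06, -2.22, -2.26 and -2.48, a fall of 3.86 ± 0.68 (adjusted p = 0.0144). CSF2, or GM-CSF, was measured on 4 of 4 day 10 arrays and 0 day 100 arrays and was at least 11-fold lower (adjusted p = 0.0155). IL22RA1, the epithelial receptor chain for interleukin-22, was at least 13.4-fold lower by the same measure (adjusted p = 0.0278). The classical cytokines IL1B, IL6 and TNF had differences of -1.62 ± 0.79, -1.86 ± 1.05 and -1.07 ± 0.57, and none of the 3 passed (adjusted p = 0.222, 0.284 and 0.261). With normexp CCL3, CCL4, CSF2 and IL22RA1 lost their calls, at differences of -1.05, -1.19, -0.86 and -1.40. Without cow 1, 3 or 4 the chemokine count was 0, 0 and 1 and the interleukin count 1, 1 and 1.

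Antimicrobial genes gave 3 calls among 36 tested, all lower, and 33 did not pass, where 3.08% of all genes fell. TAP, the tracheal antimicrobial peptide, a bovine beta-defensin, read 5.74, -1.63, -0.57 and 5.24 at day 10 and -1.23, -6.81, -7.95 and -6.32 at day 100, where 2 of 4 arrays were well above background. Cows 1 and 4 held the high day 10 values, and cow 1 kept the highest at day 100, above the day 10 level of cow 2. TAP fell by 7.77 ± 1.42 (adjusted p = 0.0173). Beta-defensin genes resemble each other, and whether its probes also read relatives was not tested. LAP, another beta-defensin, was high in the same cows at day 10, 3.70, -4.91, -5.32 and 4.19, and a difference of -5.96 ± 1.72 that did not pass (adjusted p = 0.0671). NOS2, the inducible nitric oxide synthase, read -0.69, 0.79, 1.69 and 0.65 and then -3.95, -3.14, -1.66 and -2.26, a fall of 3.36 ± 0.36 with no overlap (adjusted p = 0.00204). Its order of cows differs from that of TAP, with cow 3 highest at day 10.

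Several other genes, transporter and channel genes among them, also stood higher in cows 1 and 4 than in cows 2 and 3 at day 10. LOC784768, which the array design describes as a calcium-activated epithelial chloride channel, read 4.23, -4.42, -5.84 and 1.64 at day 10 and was not well above background on any day 100 array, a fall of at least 50.4-fold (adjusted p = 0.0255). CLCA3, of the same family and listed in the design as a pseudogene, read 2.06, -6.13, -6.07 and -0.33 and was at least 17.6-fold lower (adjusted p = 0.0345). Whether these probes read related copies was not tested. SLC13A2, a sodium-dependent dicarboxylate transporter, read 1.24, -5.65, -4.43 and 0.12 at day 10 and was at least 21.4-fold lower (adjusted p = 0.0309). LOC100296618, named only from a cDNA clone, fell by 5.97 ± 1.24 from 6.66, 0.89, 1.41 and 6.44 (adjusted p = 0.026). In these 4 genes cows 1 and 4 exceeded cows 2 and 3 at day 10 by more than 4 log2 units. The epithelial marker level and the neutrophil marker level were also higher in cows 1 and 4 than in cows 2 and 3 at day 10, and their part in these values was not tested. FUT4, a fucosyltransferase that builds Lewis antigens, was the 1 call among 27 tested mucins and glycosyltransferases, a fall of 2.80 ± 0.68 (adjusted p = 0.042). With normexp LOC784768, CLCA3, SLC13A2 and FUT4 lost their calls, at differences of -3.16, -2.03, -1.88 and -0.87.

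A further set of falls ran the opposite way between cows. STAR, the cholesterol carrier of steroid-making cells, read 1.75, 5.69, 6.07 and 1.74 at day 10, with cows 2 and 3 about 4 log2 units above cows 1 and 4, and -3.25, -0.04, -1.18 and -2.77 at day 100. The fall was 5.63 ± 1.20 (adjusted p = 0.028), and it left no overlap. PMEL, a fibril-forming protein known from melanosomes, read 1.72, 4.30, 4.51 and 1.79 and then -2.02, -0.67, -3.32 and -3.10, with the same cows high, and fell by 5.36 ± 0.76 (adjusted p = 0.007). TTR, the thyroid hormone and retinol carrier transthyretin, read -1.43, 3.00, 2.67 and -0.39 and then -2.54, -4.32, -3.15 and -3.95, and fell by 4.45 ± 1.11 (adjusted p = 0.0464). SPP1, osteopontin, an adhesion protein of macrophages and uterine glands, read -1.30, 2.75, 3.93 and 0.92 at day 10 and -4.23, -2.74, -2.93 and -3.42 at day 100, a fall of 4.90 ± 0.80 (adjusted p = 0.0118). Cow 3 was highest and cow 1 lowest in SPP1 at day 10, and no day 100 value reached the lowest of day 10. The smooth muscle marker level was also higher in cows 2 and 3 than in cows 1 and 4 at day 10. With the epithelial level less the smooth muscle level as a covariate, STAR fell by 4.95, PMEL by 5.13, TTR by 4.40 and SPP1 by 4.62. That covariate is a marker level of these same arrays, and the part of tissue shares in these falls was not tested. CYGB, cytoglobin of fibroblast-like cells, fell by 4.52 ± 0.84, from 0.28, 2.15, 1.98 and 0.74 to -5.87, -0.10, -4.18 and -2.78 (adjusted p = 0.0186). All 4 cows were lower at day 100, cow 2 least.

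**Figure D3:**
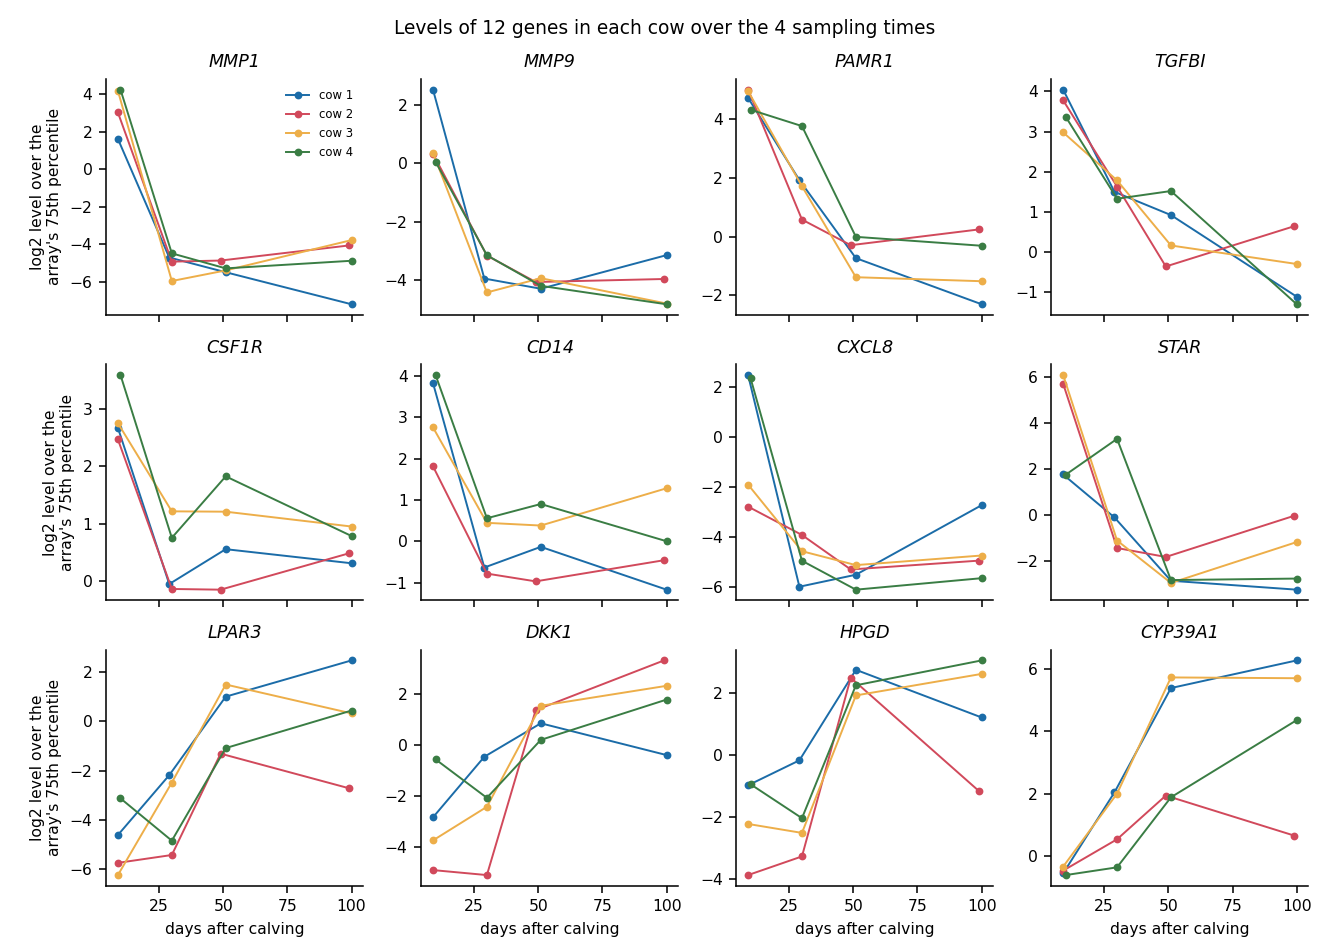
Log2 level over the 75th percentile of the array (vertical axis) against days after calving for 12 genes, 1 line per cow. The upper rows hold genes that fell, with CXCL8 high at day 10 in cows 1 and 4 and STAR high in cows 2 and 3, and the lowest row holds genes that rose by day 100.

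Stromal regulators fell in part. HAND2, a transcription factor of endometrial stroma that progesterone induces and that restrains epithelial growth signals, read -1.57, -2.28, -2.69 and -1.66 at day 10 and -5.55, -4.18, -5.04 and -5.64 at day 100, without overlap, and fell by 3.05 ± 0.43 (adjusted p = 0.00669). At day 100, 3 of 4 arrays were well above background for HAND2. Its paralog HAND1 was called lower by 1 probe, at -3.39, while another probe of it read 0.19, so its direction is uncertain. PDGFRB, a receptor of stromal cells and pericytes, fell by 2.54 ± 0.50 (adjusted p = 0.0221). These were the 2 calls among 21 tested stromal fibroblast markers, whose median was -0.56, and VIM and DCN differed by -0.35 ± 0.27 and 0.02 ± 0.33 (adjusted p = 0.441 and 0.973). TGFB2, a TGF-beta ligand, fell by 2.52 ± 0.36, from -0.74, -0.99, -0.67 and -0.97 to -4.29, -2.30, -3.69 and -3.16 (adjusted p = 0.00755). NOG, the BMP antagonist noggin, fell by 3.44 ± 0.70, with 1 day 100 array well above background (adjusted p = 0.0244). With normexp HAND2 and NOG lost their calls, at -1.23 and -0.38 (adjusted p = 0.0508 and 0.48). The progesterone receptor PGR had a difference of -0.98 ± 0.32 that did not pass (adjusted p = 0.0885).

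Among the rises were a receptor and enzymes of lipid signals. LPAR3, the lysophosphatidic acid receptor known for its role in embryo implantation and spacing, read -4.61, -5.73, -6.23 and -3.12 in cows 1 to 4 at day 10 and 2.46, -2.71, 0.32 and 0.43 at day 100. The lowest day 100 value, in cow 2, still lies above the highest of day 10 by 0.41, and the rise was 5.05 ± 0.83, or 33-fold (adjusted p = 0.0119). A second probe gave 4.86, and the most upstream probe, dim at both times, gave 1.58 and did not pass. HPGD, which inactivates prostaglandins by oxidation, read -0.98, -3.88, -2.23 and -0.95 and then 1.20, -1.17, 2.61 and 3.04, a rise of 3.43 ± 0.69 (adjusted p = 0.0238). The day 100 value of cow 2 lies below the day 10 values of cows 1 and 4, though above that cow's own. HPGD was the 1 call among 26 tested prostaglandin genes, where 1.77% of all genes rose, and the median of the list was 0.20. The synthase PTGS2 had a difference of 0.64 ± 1.51 and the receptor PTGFR one of -3.50 ± 1.19 (adjusted p = 0.816 and 0.0999). OXTR, the oxytocin receptor, read 2.98, 3.48, 2.82 and 2.35 and then 1.12, 1.03, -2.59 and -2.09, and its difference of -3.54 ± 1.05 did not pass (adjusted p = 0.0706). CYP39A1, an oxysterol hydroxylase of bile acid synthesis, read -0.56, -0.47, -0.34 and -0.61 at day 10, within 0.27 of each other, and 6.27, 0.66, 5.70 and 4.36 at day 100. It rose by 4.74 ± 0.82, least in cow 2 (adjusted p = 0.0143).

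Secreted ligands and antagonists moved both ways. DKK1, an antagonist of WNT signalling that progesterone induces in endometrium, read -2.83, -4.89, -3.73 and -0.56 at day 10 and -0.39, 3.32, 2.32 and 1.78 at day 100, a rise of 4.76 ± 1.10 (adjusted p = 0.0361). Cow 2 moved most and cow 4 least, and the day 100 value of cow 1 lies just above the highest of day 10. WNT2B, a canonical WNT ligand, rose by 3.92 ± 0.94, from -3.83, -4.70, -1.86 and -3.81 to -1.41, -0.01, 1.20 and 1.71 (adjusted p = 0.0412), and a second probe gave 2.44 and did not pass. These were the 2 calls among 42 tested WNT and hedgehog genes, where 1.77% of all genes rose and 3.08% fell. The median of the list was -0.11, which normexp turned to 0.30. PGF, placenta growth factor, a ligand of FLT1, read 0.38, -2.69, -1.12 and -1.11 and then 1.53, 0.85, 3.31 and 2.74, and rose by 3.24 ± 0.54 (adjusted p = 0.0126), with its other probes at 2.53 and 2.62 not passing. VEGFD, a lymphangiogenic growth factor, rose by 3.14 ± 0.65 (adjusted p = 0.0258). In the angiogenesis list HIF3A, PGF and VEGFD rose and 5 of 40 tested members fell. Those were ANGPTL4, a lipoprotein lipase inhibitor, by 3.06 ± 0.58, and EDNRB, PDGFRB, SEMA3A and ANGPTL2, of which the dim EDNRB probe turned from -2.77 to 0.01 after normexp. FST, the activin-binding protein follistatin, read 0.01, -0.85, -0.65 and 0.83 and then 2.55, 0.01, 4.38 and 3.46, and rose by 2.76 ± 0.62 (adjusted p = 0.0322). It was the 1 rise among 42 tested TGF-beta and activin genes, of which 3 fell, TGFBI, TGFB2 and NOG, with a median difference of -0.30. IGF2, a fetal and uterine growth factor, rose by 1.66 ± 0.40 (adjusted p = 0.04). Of its 11 tested probes 2 passed, and the other 9 had differences from 0.04 to 1.93. The IGF list of 19 had 1 further call, IGFBPL1, an IGF-binding protein-like gene, which was at least 6.89-fold lower (adjusted p = 0.0117). With normexp IGFBPL1 and SEMA3A lost their calls, at -0.71 and -0.33.

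HIF3A, a hypoxia-inducible factor subunit that opposes HIF1A in some of its forms, had the largest measured rise among the named genes, 8.13 ± 1.25 (adjusted p = 0.01). It read -6.90, -5.38, -5.62 and -8.73 at day 10, where 2 of 4 arrays were well above background, and -1.09, 3.44, 1.91 and 1.66 at day 100. Only its most downstream probe carried this signal. Probes nearer the start of the transcript, dim at both times, gave 1.66 and 1.13 and did not pass, so the call rests on the 3′ end alone. DIPK1C, a divergent protein kinase-like gene, was even between cows, from -3.51, -3.85, -4.42 and -2.40 to 2.12, 3.05, 3.80 and 3.56, a rise of 6.68 ± 1.02 or 102-fold (adjusted p = 0.00959). F10, which encodes coagulation factor X, read -4.74, -5.05, -4.72 and -5.45 and then -2.39, 2.15, -0.16 and 0.78, highest in cow 2, and rose by 5.09 ± 1.22 (adjusted p = 0.0407). OSR1, a zinc finger factor of urogenital mesenchyme, rose by 4.22 ± 0.73 at its downstream probe, from -2.68, 0.46, -0.14 and -1.88 to 2.29, 2.39, 4.18 and 3.78 (adjusted p = 0.0165), while a dim upstream probe gave 0.32. MPPED2, a metallophosphoesterase, rose by 3.75 ± 0.49 with little spread, from -2.67, -0.98, -1.82 and -1.82 to 2.93, 2.02, 1.44 and 1.33 (adjusted p = 0.00522). AIFM3, a mitochondrial oxidoreductase-like protein, rose by 4.30 ± 0.98 (adjusted p = 0.0351). PHGDH, which commits glycolytic carbon to serine synthesis, rose by 3.33 ± 0.84 and SLC1A4, a transporter of serine and other neutral amino acids, by 1.83 ± 0.27 (adjusted p = 0.0469 and 0.00852). SLC1A4 was tight at both times, -0.75, 0.20, -0.14 and -0.31 and then 1.45, 1.23, 1.84 and 1.80. ITGBL1, an integrin-like matrix protein, and UNC45B, a myosin chaperone, were not well above background on any day 10 array and were at least 12.4-fold and 11.1-fold higher at day 100 (adjusted p = 0.0304 and 0.0358). IL17RE, an epithelial receptor chain for interleukin-17C, and ANKRD33B were at least 3.55-fold and 2.92-fold higher by the same measure (adjusted p = 0.0186 and 0.0458). With normexp ITGBL1 and ANKRD33B lost their calls, at 1.78 and 0.94. Other probes of F10 gave 2.86 and 4.60, of AIFM3 4.06 and of ANKRD33B 0.93, and did not pass.

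Cholesterol synthesis genes rose as a group. Of 24 tested members 9 rose and 0 fell, where 1.77% of all genes rose, and the median difference was 1.44. In 4 of 4 cows 18 of 24 were higher, as were 1932 of all 13422 genes. The mean level of the list was -0.79, -0.82, -1.01 and -0.62 in cows 1 to 4 at day 10 and 2.00, 0.53, 0.47 and 0.02 at day 100, without overlap. HMGCS1, a synthase of the mevalonate pathway, read 0.04, 0.15, -0.08 and 0.23 at day 10 and 3.69, 2.34, 3.12 and 1.60 at day 100, a rise of 2.60 ± 0.44 (adjusted p = 0.0137). The day 10 values lie within 0.31 of each other and all day 100 values are above 1.5. IDI1, an isomerase of isoprenoid units, rose by 3.00 ± 0.54, from -1.29, -1.64, -1.59 and -0.87 to 2.95, 0.66, 2.39 and 0.61 (adjusted p = 0.017). MSMO1, a sterol demethylase, rose by 2.58 ± 0.44 and FDFT1, squalene synthase, by 2.04 ± 0.38 (adjusted p = 0.0138 and 0.0186). CYP51A1, a lanosterol demethylase, and SQLE, squalene epoxidase, rose by 3.25 ± 0.63 and 2.77 ± 0.60 (adjusted p = 0.0217 and 0.0304). FDPS, farnesyl diphosphate synthase, and SC5D, a sterol desaturase, rose by 1.49 ± 0.36 and 1.38 ± 0.32 (adjusted p = 0.0412 and 0.0361). SREBF2, the factor that drives these genes, had a difference of 1.28 ± 0.39 that did not pass (adjusted p = 0.0799). Mean levels of HMGCS1 at days 30 and 50 were 1.22 and 1.86. Cow 1, with the highest epithelial level at day 100, also had the highest cholesterol list level there, whereas cow 2, with the lowest epithelial level, was second. With the epithelium and smooth muscle levels as covariate 12 members rose, and the part of tissue shares was not tested. The count was 5 without the day 100 array of cow 1, 0, 0 and 1 without cows 1, 3 and 4, 0 without the day 10 array of cow 1 and 0 in the 8 arrays alone.

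**Figure D4:**
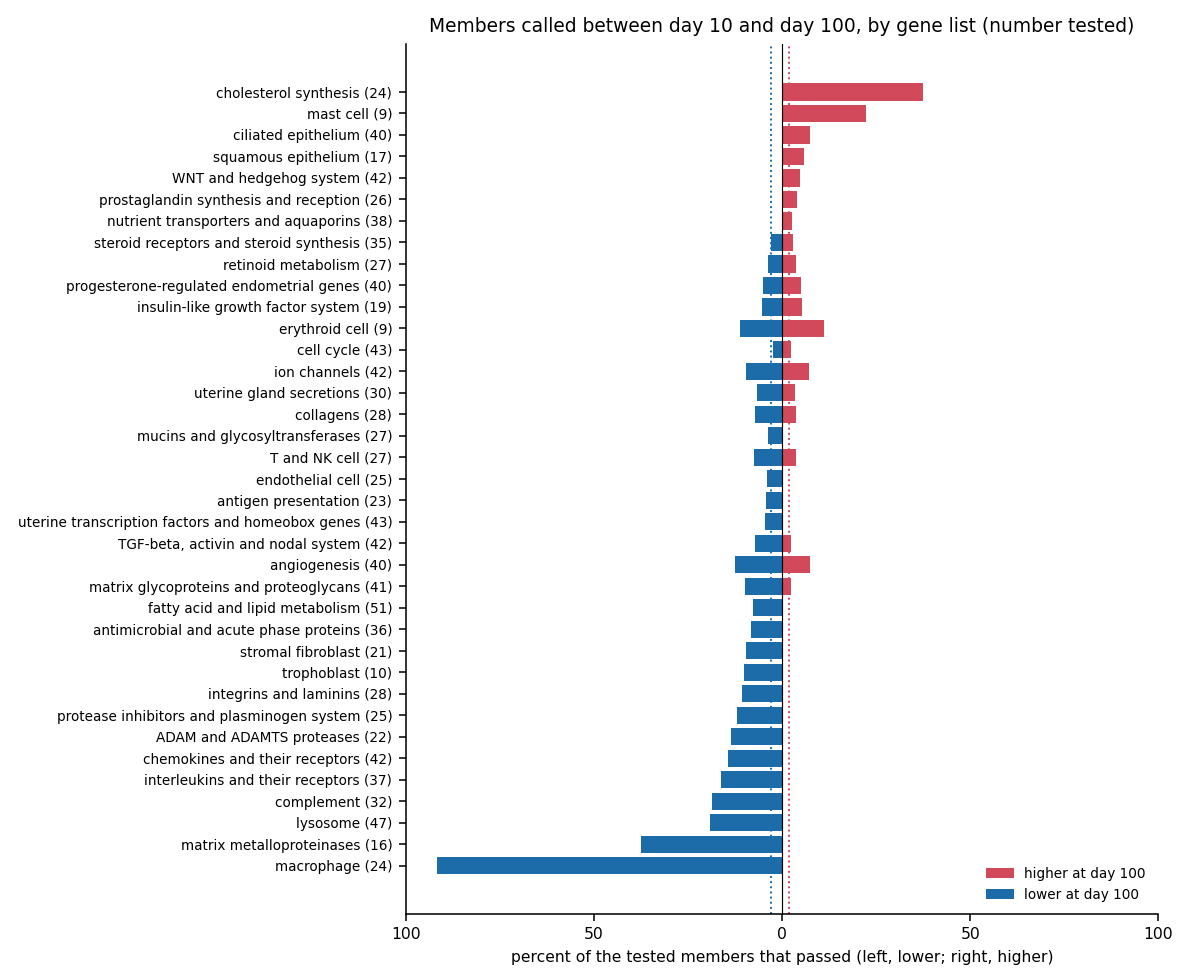
Percent of the tested members of each gene list that were called (horizontal axis, lower to the left, higher to the right), for the lists with any call, with the number tested in parentheses. Dotted lines mark 1.77% and 3.08%, the shares of all tested genes called higher and lower. Macrophage markers reach furthest to the left and cholesterol synthesis genes furthest to the right.

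Ciliated epithelium markers gave 3 rises and 0 falls among 40 tested, with a median difference of 1.99. TTLL9, a tubulin-modifying ligase, read -7.16, -6.86, -6.02 and -7.54 at day 10, with 1 array well above background, and -1.43, -2.46, -1.42 and -1.84 at day 100, a rise of 5.10 ± 0.69 (adjusted p = 0.00584). CCDC39, needed to assemble ciliary dynein arms, rose by 3.00 ± 0.58 and CFAP47, a cilia-associated protein, by 5.23 ± 1.14, with 1 and 2 of 4 day 10 arrays well above background (adjusted p = 0.0217 and 0.0307). A second CFAP47 probe gave 2.41 ± 1.15 and did not pass (adjusted p = 0.215). The ciliary master factor FOXJ1 was not well above background on any day 10 array and its difference of 1.06 ± 0.72 did not pass (adjusted p = 0.37). The mean level of the list at day 100 was 1.69, -1.43, 1.77 and 0.92, lowest in cow 2, as for epithelium, and it was -1.32, -1.11, -1.05 and -1.95 at day 10. Without the day 100 array of cow 2, 18 ciliary markers rose, and with normexp also 18, while 0, 1 and 1 rose without cows 1, 3 and 4. Mast cell markers gave 2 rises among 9. SLC18A2, the vesicular monoamine transporter that loads histamine, read -2.93, -3.92, -3.27 and -3.58 and then -0.74, -1.07, 0.43 and 1.35, a rise of 3.42 ± 0.69 without overlap (adjusted p = 0.0239). CPA3, mast cell carboxypeptidase, was well above background on 1 day 10 array and all 4 day 100 arrays and rose by 3.38 ± 0.75 (adjusted p = 0.0316). KIT and the tryptase TPSB2 had differences of 0.67 ± 0.31 and 1.28 ± 0.54 that did not pass (adjusted p = 0.196 and 0.17). GZMB, granzyme B of cytotoxic cells, rose by 2.26 ± 0.56, while NKG7 and CD4 fell by 2.08 ± 0.39 and 0.81 ± 0.20 (adjusted p = 0.0441, 0.0188 and 0.0475), the 3 calls among 27 T and NK cell markers. The CD4 call was lost with normexp, at -0.51. HBB, a haemoglobin chain, rose by 4.33 ± 1.08, from -6.26, -6.35, -7.55 and -4.76 to 1.06, -2.06, -3.19 and -3.40, highest in cow 1 (adjusted p = 0.0464). It was well above background on 1 day 10 array, and whether its probe reads other beta-like globins was not tested. SLC4A1, the anion exchanger of red cells, fell by 2.00 ± 0.50 (adjusted p = 0.0464), a fall that turned to 0.29 with normexp. Of 9 tested erythroid markers HBB was the 1 that rose and SLC4A1 the 1 that fell.

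Of 42 tested ion channels 3 were higher, 4 were lower and 35 did not pass, where 1.77% of all genes rose and 3.08% fell. CACNG4, a calcium channel and AMPA receptor subunit, and MCOLN3, a lysosomal cation channel, rose by 5.76 ± 1.22 and 5.50 ± 1.34, both least in cow 2 (adjusted p = 0.0275 and 0.0426). KCNMB2, a potassium channel subunit, was dim on all day 10 arrays and on that of cow 2 at day 100 and was at least 16.6-fold higher (adjusted p = 0.0427). TRPA1, an irritant-gated cation channel, read 0.13, -2.62, -0.41 and 1.68 and then -5.59, -7.93, -3.93 and -4.23, a fall of 5.11 ± 0.56 (adjusted p = 0.00204). MEP1B, a meprin protease listed here among progesterone-regulated genes, read -7.05, -6.33, -5.71 and -6.53 and then 3.86, -5.54, 4.15 and 4.30. The rise was 8.10 ± 1.86 (adjusted p = 0.036), with 0.79 in cow 2 and over 9 in the other cows. The progesterone-regulated list of 40 gave 2 rises, MEP1B and DKK1, and 2 falls, HAND2 and SPP1, while 36 did not pass. These calls are read as single genes. In retinoid metabolism SDR16C5, a retinol dehydrogenase, rose by 5.34 ± 1.21, again least in cow 2, and DHRS9, well above background on 3 day 10 and 2 day 100 arrays, fell by 2.23 ± 0.31 (adjusted p = 0.0338 and 0.00669). With normexp the DHRS9 difference was -0.05 and did not pass (adjusted p = 0.923). Among 35 steroid genes HSD17B4, a peroxisomal enzyme of fatty acid and steroid oxidation, rose by 1.11 ± 0.25 and STAR fell (adjusted p = 0.0318 for HSD17B4).

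Some groups gave no call. None passed among 45 tested interferon response genes, 55 cytosolic ribosomal proteins, 44 respiratory chain subunits, 40 chaperones, 44 cell junction genes, 27 immediate early genes and 13 B and plasma cell markers. Their medians were 0.29, 0.11, 0.06, -0.05, 0.49, -0.12 and -0.16 in that order. Of 43 tested cell cycle genes CCNE1, which drives entry into S phase, fell by 1.88 ± 0.39, and RRM1, a subunit of ribonucleotide reductase, rose by 1.62 ± 0.38 (adjusted p = 0.0262 and 0.0384). A second RRM1 probe, at 3.23, did not pass, and with normexp CCNE1 lost its call, at -0.66. The median of that list was -1.09, and -0.16 after normexp. In 4 of 4 cows 20 of 43 were lower, as were 1986 of all 13422 genes. Medians of lists depend on the scaling: of 51 lists, 17 changed the sign of their median after normexp and 4 after quantile normalization.

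Day 100 was also set against day 50, a comparison that shares its day 100 arrays with the one above. Of 33182 probes 0 were called, or 0%, while 1042 had an unadjusted p under 0.05 in limma, and the smallest adjusted p was 0.912. For named genes the 95% intervals give the size of change that the data leave room for. LPAR3 differed from day 50 by 0.10 ± 0.83 (95% interval -1.71 to 1.92), CSF1R by -0.23 ± 0.28 (-0.83 to 0.38), HMGCS1 by 0.83 ± 0.44 (-0.14 to 1.80) and PAMR1 by -0.37 ± 0.60 (-1.69 to 0.96). HS3ST3A1 and SPP1 differed by -2.13 ± 0.77 (-3.82 to -0.45) and -1.88 ± 0.80 (-3.63 to -0.12), neither past the threshold (adjusted p = 0.912 and 0.912).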

How the data were processed

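Total RNA from 16 endometrial biopsies was hybridised to Agilent one-colour (Cy3) arrays. Processed signal intensities, detrended and background-subtracted within each array by Feature Extraction 11.5.1.1, were used as deposited, per the file headers, with the probe coordinates of build HGSC Btau_3.1. The submitters' processing notes name version 10.5.1.1. Flags for spots well above background, saturated or not uniform were also taken as deposited, and no spot was saturated. The authors' deposited value table holds log2 signals less the array's 75th percentile, centred on each probe's median. It correlated with the scanner values at 1.00 on each array, and its column medians ran from -0.16 to 0.21. Array number limits the precision.

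Processed signals of non-control spots were log2 transformed, reduced by the array's 75th percentile and averaged per probe, without nonuniform spots. A probe was tested where 4 or more of the 16 arrays read it well above background (33182 of 43653). Limma 3.58.1 (R 4.3.3, lmFit and eBayes) fitted time and cow, and p-values were adjusted by Benjamini-Hochberg over all tested probes. Every adjusted p in the text is from this two-sided test. Symbols came from the RefSeq gene table by accession (22205 probes), gene ID (1476), current symbol (9542) or synonym (372). The remaining 10058 probes took the name in the file, which was left blank where it was only an accession. In all, 9542 probes have no symbol. A gene is its tested probe with the highest mean level over all arrays, so a call can differ between its probes. Of 651 called genes 353 have several tested probes, of which 174 had all probes called and 25 had probes of opposite sign.

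The labels say the biopsies came from the same animals at 4 times, so the cow number pairs them. Deviations from the time means correlated at 0.32, 0.51, -0.05 and 0.06 between day 10 and day 100 of cows 1 to 4. Named genes are the 12 largest rises and falls among called genes that moved the same way in 4 of 4 cows and were well above background on all 8 arrays, the 5 largest bounds per direction, and up to 4 called genes per list and direction with the smallest adjusted p. Defining members that did not pass may be named with values. ANGPTL2, CYP51A1, SQLE, FDPS, SC5D and the marker genes outside this rule were named after their values were seen. The members and lists were chosen with earlier results of these data known. The fit was tested on simulated data. In all, 19 alternatives were tried. Some genes that the counts include are not reported here by name.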

Additional observations from a re-analysis of the deposited data

Results flagged for a closer look

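Among 342 groups of 4 arrays (120 genes and 51 lists at day 10 and at day 100), 11 had a highest or lowest array whose gap to its neighbour, as a share of the whole range, reached Dixon's critical value of 0.829. Chance flags about 1 in 20 groups, and these are 3.22%.

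At day 100 the lowest array was the odd one for MEP1B (share 0.956, level -5.54 against 3.86 for the next) and for SDR16C5 (0.829, -3.17 against 2.45), in both genes that of cow 2. Cow 2 was also lowest in the mean level of the T and NK cell list (0.918, -1.37 against 0.36). Cow 1 was lowest for the angiogenesis list (0.924, -1.01 against 0.09) and the pericyte list (0.847, -2.05 against 0.06). For IL1RN the highest day 100 array, of cow 1, stood apart (0.899, 0.06 against -2.22).

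At day 10 the highest array stood apart for MMP9 (0.875, 2.54 against 0.37), ITGBL1 (0.917, -6.82 against -8.71) and KCNMB2 (0.880, -7.14 against -9.03), each time that of cow 1, the last 2 genes not well above background there. The lowest day 10 array stood apart for VSIG4 in cow 1 (0.829, 0.14 against 0.52) and in cow 2 for the list of steroid receptors and steroid synthesis (0.918, -0.29 against 0.14).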

How the results depend on the processing

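The number of probes called at day 100 against day 10, 1527, stayed within 1.5 times of that value under 12 of 19 alternatives, from 1160 with no filter on dim probes to 2099 with normexp background correction. Without the cow term (no replicate block) it was 1360. It was 44 in the 8 arrays alone, where fewer arrays estimate the spread, 2673 with the epithelial less the smooth muscle level as a covariate, 3104 without the day 100 array of cow 2 and 266 without the day 10 array of cow 1. Leaving out a cow, or 1 of its arrays, gave from 75 to 3104, with 75, 1588, 83 and 193 without cows 1 to 4. The share of calls that were higher was 31.6%, and 71.2% with normexp, 43.3% with quantile normalization, 42.6% and 44.6% without cow 2 or its day 100 array. After normexp 4 named genes changed sign, EDNRB to 0.0069, ITGA4 to 0.058, KCNK3 to 0.31 and SLC4A1 to 0.29, and the cause was not tested. Of the 120 named genes 91 stayed called with normexp, while 25 lost their call and 4 changed sign, 111 stayed called with quantile normalization, 100 without the replicate block and 119 with the covariate. Without cows 1 to 4 in turn 17, 91, 21 and 23 stayed called, and without the day 10 array of cow 1 32. Day 100 against day 50 gave 0 calls in limma under each alternative run, with 445 to 2849 probes at an unadjusted p under 0.05. Without both day 100 arrays of cows 1 and 2, an alternative chosen after seeing the data, 1814 probes were called. Signals below background limit what can be said of 10471 probes that were not tested.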
